A study of Homo sapiens with 12 samples.

Results

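Venetoclax-resistant OCI-LY1R cells and their parental OCI-LY1 cells were compared after both had been given decitabine, using 5 of the 12 RNA libraries of the study. OCI-LY1 was grown from a diffuse large B-cell lymphoma and has the germinal-centre type of that tumour. OCI-LY1R was derived from it by selection in venetoclax raised stepwise to 1 µM, so the resistant side is a single derived line. The study held 4 groups of 3 libraries, namely parental and resistant cells, each with DMSO vehicle or with 1 µM decitabine for 3 days. The resistant decitabine libraries, here called a, b and c, were set against parental decitabine replicates 1 and 2. Parental decitabine replicate 3 was left out because its strand composition differed from that of every other library. The labels do not say whether the libraries came from separate cultures, so the p-values measure only the spread between these libraries. The question, as the design states it, is how cells that have acquired resistance differ from sensitive cells when both are exposed to the same hypomethylating drug.

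Venetoclax occupies the groove of BCL2 that normally holds pro-apoptotic BH3-only proteins such as BCL2L11 and BMF, and the released proteins let BAX and BAK1 open the outer mitochondrial membrane. Cells can lose this response when MCL1, BCL2L1 or BCL2A1 takes over the holding role, or when the pro-apoptotic side is reduced. Decitabine is a cytidine analogue that is phosphorylated by DCK, is built into DNA and traps DNMT1, so that methylation is lost as cells divide and silenced promoters can become active. A second route to cell death runs from the surface receptor FAS through caspases.

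All levels are TPM, each library's transcript share scaled to a sum of 1000000, and a level is that of the feature as the deposited table lists it. In the 5 libraries compared, protein-coding features held 29.1% to 32.2% of the TPM and features annotated as antisense held 34.95% to 39.7%, against 89.6% and 0.30% in parental decitabine replicate 3. ACTB, the cytoskeletal actin of every cell, was listed at 8.77 to 14.1 TPM in the 5 libraries and at 6353 TPM in replicate 3. How reads were assigned to strands was not tested. No level printed here for a coding gene, high or low, can therefore be taken as that of the gene's own RNA. This holds for FAS, SLC19A1 and STK25 too. The same limit applies to antisense and other non-coding features. Of those described below, BMF-AS1, AC025423.4, PRAL and AP001610.2 were at 0 in replicate 3 and ABALON at 0.260 TPM, while the pseudogene TMEM198B was at 44.7 TPM there. The summed level of 8 B-cell markers ran from 32.0 to 154 TPM in the 5 libraries and was 3016 TPM in replicate 3, and of 7 germinal-centre genes 3, RGS13 and LMO2 among them, were listed at 0 in all 5. GCSAM was at 15.7 to 19.7 TPM and MME at 1.25 to 16.5 TPM in the 5, and BCL6 was at 9.05 to 25.1 TPM in 4 and at 0 in resistant library c. Among markers of other cells, the T-cell sum stayed at or under 1.99 TPM with CD3D, CD3E, CD3G, CD2 and TRAC at 0, the myeloid sum at or under 4.78 TPM, and all 5 erythroid genes were at 0. The plasma cell sum was 5.24 and 0 TPM in parental and 552, 1.34 and 2193 TPM in resistant libraries, nearly all of it JCHAIN, the joining chain of secreted antibodies, at 0 and 0 against 552, 0 and 2192 TPM (adjusted p = 0.519). Its part in the results was not tested. The epithelial sum was 0.530 and 0.682 TPM in parental and 23.4, 15.2 and 1.77 TPM in resistant libraries. An exact 0 can be a failed estimate: 692 of the tested features (7.66%) were listed at 0 in 1 library and at 10 TPM or more in another library of the same decitabine group.

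Of 9029 features that averaged 1 TPM or more in these libraries, 75 differed between the lines at a Benjamini-Hochberg adjusted p under 0.05 in limma on log2(TPM + 1), or 0.831% of those tested. Resistant cells were higher for 46 features (0.509%) and lower for 29 (0.321%). The libraries of the 2 lines did not overlap for any of the 75, against 32% of all tested features without overlap (19.5% higher and 12.4% lower). At an unadjusted p under 0.05 there were 1094. Of the features described below, those outside the naming rule given with the methods, such as HTRA2, STK25, H2BC12, MX1, SYCP3, PAX5, KLRK1, MT-ATP6, FAM163B, AFAP1-AS1 and ADAMTSL4, were chosen after their values were seen. The median log2 difference over all tested features was 0.10, and 0.02 after median-ratio scaling, so small differences are best read against that shift. Coding features made up 54.7% of the calls and 54.2% of the tested features, and antisense features 20% and 19.7%. For 39 of the 75 (52%) one line was listed at 0 in every library, namely parental for 19 of the higher and resistant for 20 of the lower features. The count rested on few libraries: it was 5 without parental replicate 1, 0 without parental replicate 2, and 1, 5 and 17 without resistant library a, b and c. With parental replicate 3 included it was 0, with 285 features at an unadjusted p under 0.05. The test also crosses tables that were deposited separately for each line, so a table and a line cannot be told apart.

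**Figure D1:**
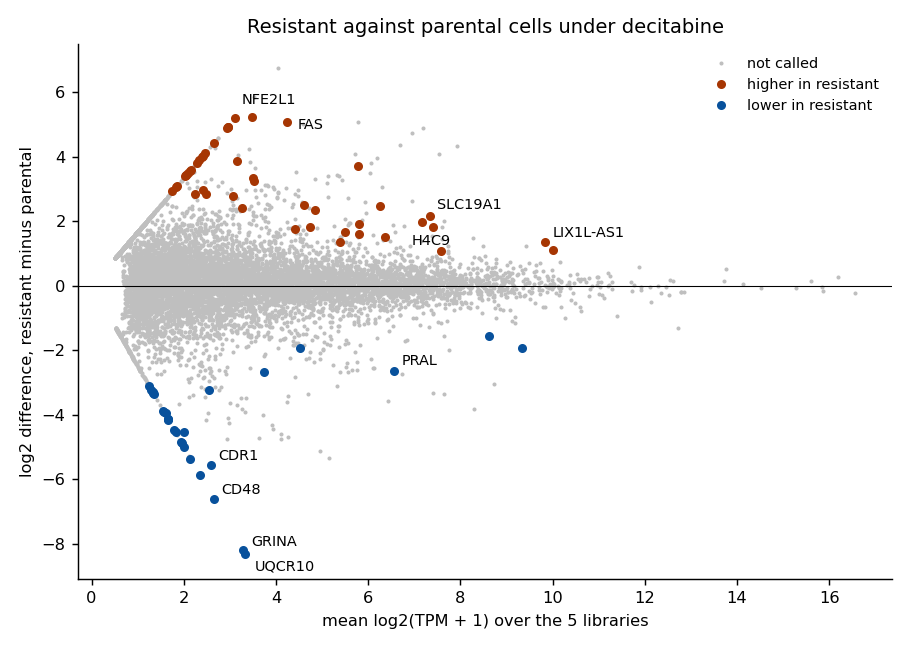
Log2 difference between resistant and parental decitabine libraries (vertical axis, log2 of TPM + 1) against the mean level of each of the 9029 tested features (horizontal axis, mean log2 of TPM + 1 over the 5 libraries). Coloured points are the 46 features called higher and the 29 called lower in resistant cells, and the labelled points show FAS and NFE2L1 near the top and UQCR10 and GRINA near -8.

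Among the called features of the apoptosis lists, the death receptor FAS was higher in resistant cells and the BCL2 antagonist BMF was lower. FAS (chromosome 10, 88990582 to 89015785, plus strand) was listed at 1.81 and 0.881 TPM in the parental libraries and at 73.3, 95.0 and 63.1 TPM in the resistant ones. Every resistant library lay far above both parental libraries. Replicate 3 of the parental group, outside the comparison, listed FAS at 2.98 TPM. That value comes from a library of another strand composition and cannot be compared with the others. The log2 difference was 5.07 ± 0.30 (SE) with a limma adjusted p of 0.0151. Under vehicle the same gene was at 8.63, 7.89 and 11.1 TPM in parental and 8.20, 9.54 and 15.2 TPM in resistant cells, which overlap. In bulk RNA, a difference in the share of cells with a transcript and a difference in RNA per cell cannot be told apart. The line difference for FAS therefore changed with the drug by 4.87 ± 0.43 on the log2 scale (adjusted p = 0.0019 in limma over 11 libraries). Exons of ACTA2 lie opposite 8.93% of the FAS exon length, and ACTA2, a smooth-muscle actin, was at 2.02 and 2.99 against 20.4, 6.39 and 19.2 TPM (adjusted p = 0.261).

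BMF (chromosome 15, 40087890 to 40108892, minus strand), which releases BAX and BAK1 from BCL2-type proteins, was listed at 19.3 and 23.6 TPM in parental cells and at 0 in all 3 resistant libraries (adjusted p = 0.0197). It was also at 0 in all 3 resistant vehicle libraries, and at 18, 0 and 22.6 TPM in the parental vehicle libraries. The value switched to 0 within that parental group, and the change of the line difference was not called (adjusted p = 0.781). BMF-AS1, an antisense feature lying wholly opposite BMF, stood at 617 and 746 against 794, 740.3 and 679.7 TPM, a log2 difference of 0.12 (adjusted p = 0.734). The lines overlapped for BMF-AS1 under decitabine, while under vehicle resistant cells were lower by a log2 difference of -1.05 (adjusted p = 0.0119).

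The other BCL2 relatives showed no called difference. BCL2, the venetoclax target (chromosome 18), was at 75.0 and 88.6 TPM in parental and 75.8, 78.6 and 72.1 TPM in resistant libraries, a log2 difference of -0.11 ± 0.15 (adjusted p = 0.78). BCL2L1, which encodes BCL-XL, was at 22.6 and 29.1 against 16.4, 22.5 and 20.5 TPM (-0.37 ± 0.24, adjusted p = 0.557), and ABALON, for which 74.8% of the exon length lies opposite BCL2L1, was at 174 and 172 against 160.3, 175 and 183 TPM. The lines overlapped for BCL2 and ABALON, and for BCL2L1 they were apart by less than the spread within each line. MCL1, the short-lived guardian most often named beside BCL2, was at 0 and 0.395 TPM in parental and 1.99, 2.54 and 3.10 TPM in resistant cells. The groups did not overlap for MCL1, but the log2 difference of 1.57 ± 0.42 had an adjusted p of 0.249. BCL2A1 was listed at 0 except for 1.32 TPM in resistant library b and fell under the limit of 1 TPM.

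On the pro-apoptotic side, BCL2L11 (BIM) was at 18.6 and 15.04 against 18.9, 6.43 and 17.2 TPM (-0.35, adjusted p = 0.8). The effector BAX was at 3.19 and 7.52 against 2.03, 6.61 and 5.69 TPM (-0.16, adjusted p = 0.922), and BAK1 was listed at 0 in all 5. PMAIP1, which encodes NOXA, was at 0.195 and 3.61 against 1.77, 10.6 and 2.29 TPM (1.01, adjusted p = 0.694). These 4 genes overlapped or tied between the lines. BBC3, which encodes PUMA, was at 0 in both parental libraries and at 1.93, 1.29 and 0.532 TPM in the resistant ones, too low to be tested. Across the lists, 4 of 6 anti-apoptotic and 9 of 11 pro-apoptotic members were tested, with medians of -0.14 and 0.01 beside 0.10 for all features, and BMF was the only call among those 13. Of 14 death receptor genes 5 were tested, with a median of 0.12, and FAS was the only call. In the apoptosome and caspase list 5 of 15 were tested with a median of -0.63 and none called. HTRA2, a mitochondrial protease that inactivates caspase inhibitors, was the lowest of these at 159 and 159.9 against 17.2, 9.25 and 97.1 TPM (-2.61, adjusted p = 0.409).

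Genes that handle decitabine gave no call. DNMT1, the maintenance methyltransferase that decitabine traps, was at 0.875 and 2.40 TPM in parental and 0.550, 0 and 0 TPM in resistant cells, and DNMT3A, DNMT3B and DCK averaged under 1 TPM as well. UHRF1, which brings DNMT1 to replicating DNA, was at 1.83 and 1.69 against 3.26, 3.92 and 1.26 TPM (adjusted p = 0.752). SAMHD1, a hydrolase that breaks down deoxynucleotide triphosphates including that of decitabine, was at 7.77 and 0 TPM in parental and at 15, 15.8 and 16.04 TPM in resistant libraries. All 3 resistant libraries were above both parental ones, yet the spread of the parental pair left the log2 difference of 2.49 ± 0.94 without a call (adjusted p = 0.404). Of 19 uptake and nucleotide genes 10 were tested with a median of 0.42, and of 17 methylation genes 3 were tested with a median of 0.84, with 0 called in each. ABCB1, the efflux pump, was listed at 0 in all 5 libraries, and 0 of 10 efflux transporters reached the level for a test.

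The called features most raised in resistant cells were mostly listed near 0 in both parental libraries. SNAP29 (chromosome 22, 20858983 to 20891218), a SNARE protein of membrane fusion and autophagy, was at 0 and 0 TPM in parental and 30.4, 35.1 and 23.4 TPM in resistant libraries (adjusted p = 0.0151). It was listed at 0 in all 6 vehicle libraries, so only the resistant cells given the drug showed it among the 11 libraries, and the change of the line difference was 4.92 ± 0.38 (adjusted p = 0.00118). ZC3HC1 (chromosome 7, 130018286 to 130051451), a nuclear protein of the ubiquitin ligase system, had the same form, with 0 and 0 against 18.2, 22.6 and 21.2 TPM and 0 in the 6 vehicle libraries. Its line difference changed with the drug by 4.43 ± 0.35 (adjusted p = 0.0013). Parental replicate 3, of the other strand composition, listed SNAP29 at 34.3 TPM and ZC3HC1 at 60.5 TPM, and these values cannot be compared with the others.

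For the other features of this kind the vehicle libraries switched between 0 and high values. NFE2L1 (chromosome 17, 48048329 to 48061487), a transcription factor that raises proteasome genes, had the highest log2 difference of the named calls at 5.23 ± 0.29, from 0.619 and 0 TPM in parental to 47.1, 48.6 and 44.3 TPM in resistant cells (adjusted p = 0.0151). Under vehicle it was at 0, 40.8 and 0 TPM in parental and at 0, 41.5 and 0 TPM in resistant cells. DDX6, an RNA helicase of processing bodies, was at 0 and 0 against 27.3, 28.8 and 29.4 TPM (adjusted p = 0.0148), and its vehicle values were 0, 14.4 and 17.1 TPM in parental and 0, 22.4 and 0 TPM in resistant cells. RPP40, a subunit of the ribonuclease P and MRP complexes, was at 0 and 0 against 24.7, 51.6 and 35.6 TPM. GIT2, a regulator of ARF GTPases, was at 0 and 0 against 34.1, 35.3 and 20.6 TPM. LSG1, a GTPase of late 60S ribosome maturation, was at 0 and 0 against 15.8, 18.2 and 14.8 TPM (adjusted p = 0.0197 for each of the last 3). All 5 were above 0 in parental replicate 3, at 47.3, 33.7, 6.74, 20.6 and 33.9 TPM in the order given. In the fit of 4 group means over 11 libraries, which takes the vehicle spread into account, none of these 5 was called (adjusted p from 0.111 to 0.264). FAS, SNAP29 and ZC3HC1 were called there (adjusted p of 1.11e-04, 9.45e-05 and 1.05e-04). SNAP29 and ZC3HC1 were at 0 in every vehicle library, which adds no spread, and the fit reuses the same decitabine libraries. Their smaller p in that fit is therefore no further support. Over all alternatives the adjusted p ran up to 0.44 for FAS and to 0.655 for SNAP29, ZC3HC1 and these 5.

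Lower in resistant cells was UQCR10 (chromosome 22, 29767369 to 29770413), a small subunit of respiratory complex III, at 342 and 304 TPM in parental and 0 in all 3 resistant libraries. It was listed at 0 in all 6 vehicle libraries, and replicate 3 of the parental group had 141 TPM. UQCR10 had the smallest p of the comparison (adjusted p = 0.00306) and stayed called without any 1 of the resistant libraries, though not without either parental library. The change of the line difference for UQCR10 was called with an adjusted p of 1.31e-05. Other complex III and respiratory genes did not share the pattern: 15 of 38 nuclear-encoded members were tested, 9 of them positive, with a median of 0.07. Among the 5 libraries UQCRQ, of the same complex, was listed at 0 except for 265 TPM in resistant library b. TANGO2 (chromosome 22, 20017014 to 20065926), a gene of Golgi organisation and lipid handling, was at 36.6 and 44.1 TPM in parental cells given decitabine and at 0 in the other 9 of the 11 libraries (adjusted p = 0.0151, and 5.79e-04 for the change of the line difference).

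GRINA, an anti-apoptotic membrane protein of the TMBIM family, was at 234 and 364 TPM in parental and 0 in all resistant libraries (adjusted p = 0.00583). CD48, a lymphocyte surface ligand of the SLAM family (chromosome 1, 160678746 to 160711851), was at 95.5 and 98.7 TPM in parental and 0 in all resistant libraries (adjusted p = 0.00612). Under vehicle the resistant libraries listed GRINA at 138, 0 and 208 TPM and CD48 at 51.5, 0 and 0 TPM, so neither was at 0 throughout the line. The pseudogene TMEM198B was at 31.7 and 30.3 TPM, WASHC5, a subunit of the endosomal WASH complex, at 37.7 and 21.8 TPM, and CCDC43 at 32.0 and 23.9 TPM in parental cells, and all 3 were at 0 in the resistant libraries (adjusted p of 0.0151, 0.0217 and 0.0197). Each of these 5 was above 0 in at least 1 resistant or parental vehicle library, and none was called over 11 libraries (adjusted p from 0.0752 to 0.155).

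CDR1 and RAG2 were lower in resistant cells with the drug and were low there without it. CDR1 (chromosome X, 140783578 to 140784366), whose whole exon lies opposite LINC00632, was at 62.0 and 59.0 TPM in parental and 0, 1.17 and 0 TPM in resistant cells (-5.57 ± 0.46, adjusted p = 0.0225). Under vehicle it was at 48.5, 68.9 and 32.6 against 1.12, 1.17 and 0.482 TPM, also called (-4.68, adjusted p = 0.00484). RAG2, a subunit of the V(D)J recombinase that was chosen after its values were seen, was at 28.1 and 23.3 against 0, 0 and 0.527 TPM (-4.53, adjusted p = 0.0225), and at 3.40, 7.50 and 1.94 against 0 TPM under vehicle (adjusted p = 0.0743).

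**Figure D2:**
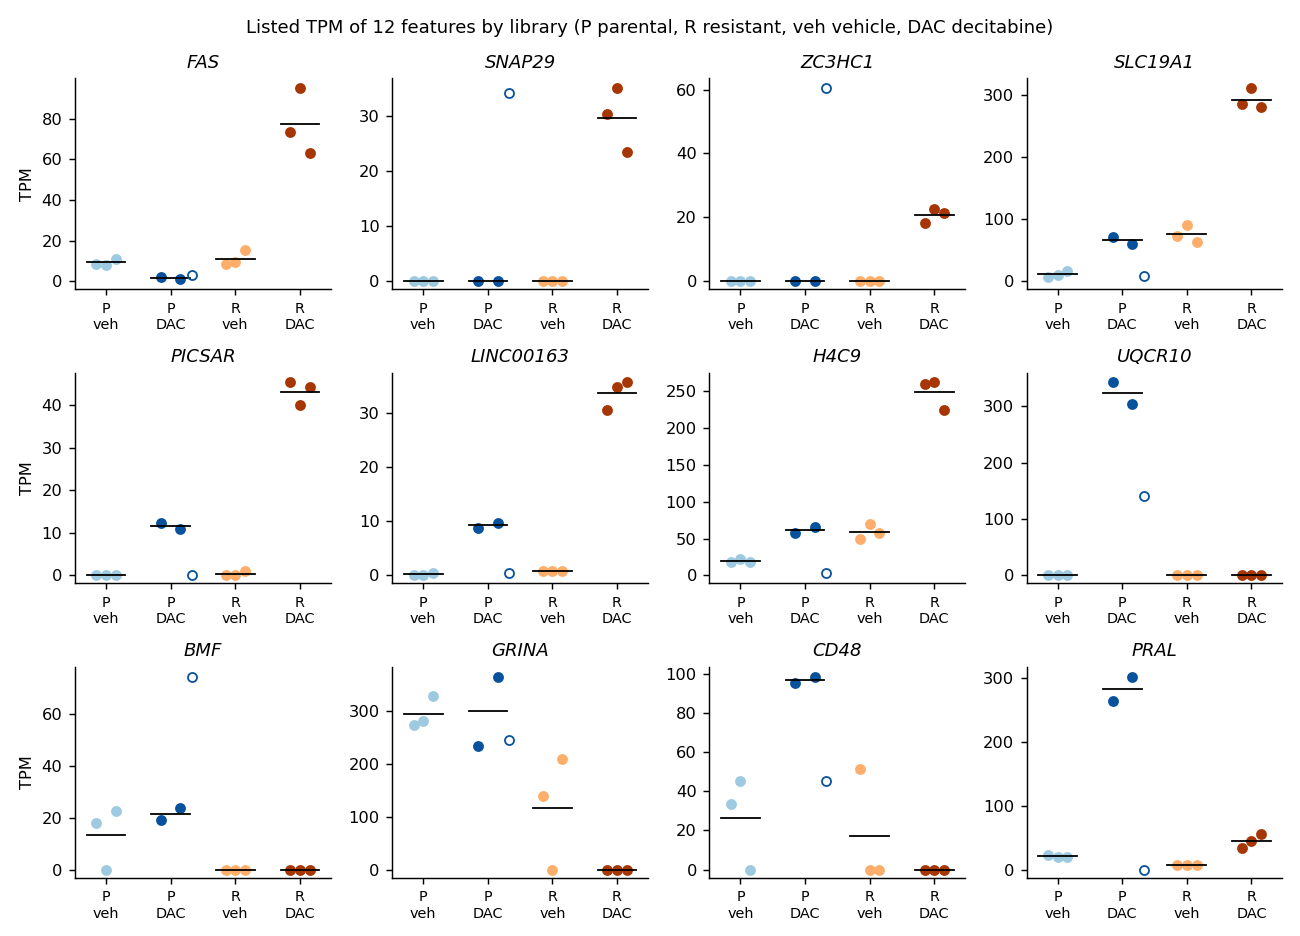
Level of 12 features in each library in TPM on a linear axis, by group (points), with black lines for group means and an open circle for parental decitabine replicate 3, which is not part of the comparison or of its group mean. Among the 11 other libraries FAS, SNAP29 and SLC19A1 are highest in the 3 resistant decitabine libraries, and UQCR10 is above 0 in the 2 parental decitabine libraries alone.

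The 300 bases around the start of 4 of these features are shown because their listed level depended on the line once decitabine was given, and the methylation that is lost under decitabine sits on CG pairs. They run from 250 bases before to 50 bases after the RefSeq start on GRCh38.p14, at chr10:88990548-88990847 for FAS (plus strand), chr22:20858757-20859056 for SNAP29 (plus strand), chr21:44994037-44994336 for LINC00163 (minus strand) and chr22:29767119-29767418 for UQCR10 (plus strand), with each CG pair in capitals.
FAS: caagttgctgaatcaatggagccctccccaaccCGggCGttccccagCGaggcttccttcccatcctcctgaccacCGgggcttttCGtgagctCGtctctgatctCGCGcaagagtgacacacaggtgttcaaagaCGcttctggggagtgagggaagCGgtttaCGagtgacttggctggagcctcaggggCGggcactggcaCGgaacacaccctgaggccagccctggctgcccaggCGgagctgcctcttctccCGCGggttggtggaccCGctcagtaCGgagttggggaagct
SNAP29: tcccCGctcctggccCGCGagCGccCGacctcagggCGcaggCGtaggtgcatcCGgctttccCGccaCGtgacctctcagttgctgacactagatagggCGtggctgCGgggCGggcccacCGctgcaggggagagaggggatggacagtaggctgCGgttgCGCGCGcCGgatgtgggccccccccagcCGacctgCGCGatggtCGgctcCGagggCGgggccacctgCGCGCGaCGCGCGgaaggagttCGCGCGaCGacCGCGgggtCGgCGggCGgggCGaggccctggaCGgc
LINC00163: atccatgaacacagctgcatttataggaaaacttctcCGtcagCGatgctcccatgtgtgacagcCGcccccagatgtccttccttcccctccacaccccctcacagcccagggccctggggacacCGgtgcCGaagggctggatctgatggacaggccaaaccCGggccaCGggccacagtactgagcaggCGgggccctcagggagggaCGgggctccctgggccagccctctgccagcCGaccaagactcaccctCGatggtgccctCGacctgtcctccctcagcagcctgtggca
UQCR10: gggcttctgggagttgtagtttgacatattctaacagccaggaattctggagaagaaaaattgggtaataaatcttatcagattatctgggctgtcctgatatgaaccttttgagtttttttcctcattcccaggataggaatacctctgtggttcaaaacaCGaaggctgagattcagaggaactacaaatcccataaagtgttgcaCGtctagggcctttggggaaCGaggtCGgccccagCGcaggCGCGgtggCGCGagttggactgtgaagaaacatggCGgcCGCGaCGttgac
The FAS window held 18 CG pairs, SNAP29 42, LINC00163 12 and UQCR10 13, against a median of 14 over 35116 windows of the same length. At least as many were found in 44.5%, 5.85%, 53.1% and 51.7% of all windows. A window was found for 40 of the 75 called features: the 28 higher ones had a median of 21.5 CG pairs and the 12 lower ones 27, beside 26 for the 4460 tested features with a window. Methylation itself was not measured in these libraries, and a CG count is a description of the letters only.

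Some calls had no library at 0 in either condition. Of the 75, 23 were above 0 in all 11 libraries, a subset chosen after the values were seen, with 18 higher and 5 lower in resistant cells. Of these, 19 were also called over 11 libraries and 20 had the same sign under vehicle, counts that describe this subset only. SLC19A1 (chromosome 21, 45493572 to 45544411), the reduced folate carrier, was at 71.9 and 59.6 TPM in parental and 286, 312 and 281 TPM in resistant cells given decitabine (2.14 ± 0.14, adjusted p = 0.0197). Without the drug it was at 7.15, 10.52 and 17.1 against 73.0, 90.9 and 63.2 TPM (2.67, adjusted p = 0.023). Resistant libraries were thus above parental ones for SLC19A1 in each condition, and the change of the line difference was not called (-0.52 ± 0.41, adjusted p = 0.698).

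Near SLC19A1 on chromosome 21 lie 2 long non-coding RNAs that were higher in resistant cells and near 0 without the drug in both lines. LINC00163 (44989864 to 44994086, minus strand) was at 8.82 and 9.67 TPM in parental and 30.6, 34.9 and 35.7 TPM in resistant cells (1.76 ± 0.19, adjusted p = 0.0387), and at 0 to 0.895 TPM in the 6 vehicle libraries. PICSAR (44999208 to 45004727, minus strand) was at 12.2 and 10.9 against 45.3, 39.9 and 44.3 TPM (1.82 ± 0.18, adjusted p = 0.0305), and at 0 to 0.952 TPM under vehicle. Both were above 8 TPM in each of the 5 decitabine libraries, with the resistant line 3.65-fold and 3.74-fold the parental mean. Parental decitabine replicate 3, of the other strand composition, listed LINC00163 at 0.396 TPM and PICSAR at 0. The change of the line difference was not called for either (adjusted p of 0.334 and 0.263). COL18A1, a collagen gene that overlaps SLC19A1 on the other strand, was at 7.94 and 10.2 against 20.6, 27.3 and 24.7 TPM (1.32, adjusted p = 0.138). These features were chosen after their values were seen.

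H4C9, a replication-dependent histone H4 gene, was the histone call. It was at 58.2 and 65.9 TPM in parental and 260.1, 262 and 224 TPM in resistant cells (1.99 ± 0.14, adjusted p = 0.0197), and also separated the lines under vehicle, at 18.1, 22.1 and 17.9 against 50.05, 69.9 and 57.8 TPM (1.56, adjusted p = 0.0219). Of 21 histone genes 6 were tested and 5 of them were positive, with a median of 1.18, the highest among lists with at least 3 tested members. That median rests partly on low levels, since H1-2, H3C4 and H4C8 were at 7.36 TPM or less in every library compared. H2BC12 was listed at 43.6 and 0 against 227, 253 and 195 TPM, without a call (adjusted p = 0.318). The cell cycle and replication list had 15 of 37 members tested, 10 positive and 0 called, with a median of 0.45.

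Among the even calls were several antisense or intergenic features, here chosen after their values were seen. AC025423.4, which lies wholly opposite MDM2, was at 608 and 691 TPM in parental and 1317, 1450.3 and 1429.8 TPM in resistant cells (1.11 ± 0.11, adjusted p = 0.0305). CPM, which encodes a membrane carboxypeptidase, overlaps the span of AC025423.4 on the same strand. It was at 124 and 119 against 244, 254 and 266 TPM (1.06 ± 0.11, adjusted p = 0.0372). MDM2, the ubiquitin ligase of the p53 pathway, was at 10.97 and 10.8 against 22.0, 24.9 and 22.0 TPM, a log2 difference of 1.01 ± 0.19 without a call (adjusted p = 0.15). The ratio of resistant to parental means was 2.15 for AC025423.4, 2.10 for CPM and 2.11 for MDM2, with no overlap between the lines in any of them. AC025423.4 and CPM were called under vehicle too (1.45 and 1.35, adjusted p of 0.017 and 0.0247). Since AC025423.4 and CPM share bases and both have exons opposite MDM2, these features are not independent. Whether the same reads were listed under more than 1 of them was not tested. CDKN1A, another p53 target, was at 0.328 and 0.947 against 2.48, 0 and 1.00 TPM and not tested, and of 20 p53 pathway genes 8 were tested, 4 positive, with a median of 0.16 and 0 called.

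PRAL, for which 77.1% of the exon length lies opposite the apoptosis factor XAF1 (chromosome 17, 6772831 to 6776116), was at 264 and 302 TPM in parental and 34.3, 45.2 and 56.4 TPM in resistant cells (-2.64 ± 0.24, adjusted p = 0.0277). Under vehicle it was at 22.7, 20.3 and 20.03 against 7.96, 7.23 and 7.14 TPM (-1.38, adjusted p = 0.023). Parental libraries were above resistant ones in each condition. AP001610.2, an intergenic RNA on chromosome 21 (41559125 to 41562958), was at 1421 and 1469 against 341, 431 and 373 TPM (-1.92 ± 0.13, adjusted p = 0.0197), with a vehicle difference of -1.11 (adjusted p = 0.0417). The line difference of PRAL and of AP001610.2 did not change by a called amount with the drug (adjusted p of 0.135 and 0.253). STK25, a kinase of the Golgi and cell migration, was at 35.5 and 44.6 against 6.52, 4.33 and 5.29 TPM (-2.69 ± 0.26, adjusted p = 0.0305), and at 28.6, 27.3 and 30.7 against 4.39, 4.48 and 5.84 TPM under vehicle (-2.35, adjusted p = 0.00663).

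An antisense feature of the rule for small p was ZSWIM8-AS1, with 64.6% of its exon length opposite ZSWIM8 (chromosome 10, 73796514 to 73801399). It was at 13.3 and 8.81 TPM in parental and 141, 158 and 158 TPM in resistant cells (3.69 ± 0.22, adjusted p = 0.0151). Under vehicle the parental libraries were at 119, 117 and 125 TPM and the resistant ones at 13.3, 93.0 and 96.5 TPM, so the lower values were in the parental cells with the drug and in 1 resistant vehicle library. ZSWIM8, an adaptor of a ubiquitin ligase that directs microRNA decay, was at 121 and 58.4 against 125, 67.0 and 112 TPM (0.22, adjusted p = 0.86).

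FAN1 and MTMR10, neighbours on chromosome 15 whose exons overlap on opposite strands, were called in opposite directions and were chosen after their values were seen. FAN1, a nuclease of DNA crosslink repair (30903852 to 30943108, plus strand), was at 0 and 0 against 11.2, 17.5 and 16.6 TPM (adjusted p = 0.0225). MTMR10, a phosphatase family member (30938941 to 30991607, minus strand), was at 20.5 and 22.6 against 1.57, 1.49 and 1.10 TPM (-3.25 ± 0.28, adjusted p = 0.0236). The overlap covered 24.3% of the FAN1 and 17.1% of the MTMR10 exon length, and neither was called under vehicle (adjusted p of 0.918 and 0.819). Vehicle values varied within each line, at 0.134, 17.8 and 13.0 against 0.153, 9.17 and 10.1 TPM for FAN1 and at 15.5, 1.16 and 3.75 against 20.9, 5.13 and 2.57 TPM for MTMR10. Neither was called over 11 libraries (adjusted p of 0.187 and 0.125, and up to 0.655 over all alternatives).

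By position, the part of the genome with the highest line difference was chromosome 1 from 145 to 150 Mb. The genome was divided into 5 Mb windows, and 189 of them held at least 8 tested features above 0 in all 11 libraries (4694 features in all). In this window 21 such features had a median log2 difference of 1.67, with 19 positive. Of the 21, 18 were higher in every resistant library than in both parental ones, beside 19.5% of all tested features. Some of the 21 lie within the span of others, such as AC245100.7 within LINC01138, so they are not all independent. The median was 0.06 over features outside the window. The next highest window, on chromosome 1 from 165 to 170 Mb, had a median of 0.81 and the lowest window of all had -0.68. Against the parental mean the window's median was 1.41, 1.56 and 1.74 in resistant libraries a, b and c, and against parental replicate 1 or 2 alone it was 1.70 and 1.59. Under vehicle, with other libraries, the same window also ranked first with a median of 1.27, 19 of 21 positive, beside 0.14 outside. With median-ratio scaling the decitabine median was 1.58 and with quantile scaling 1.51. Features of the plus strand (11) had a median of 1.51 and those of the minus strand (10) 1.79. The window was picked out after the values were seen and has no test of its own.

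Within the window 6 features were called higher and 0 lower, or 13.0% of the 46 higher calls from 45 tested features (0.498% of those tested). FMO5, a flavin monooxygenase (147175351 to 147243050), was at 6.43 and 8.75 TPM in parental and 37.7, 48.8 and 58.4 TPM in resistant cells (2.51 ± 0.27, adjusted p = 0.0391), with a vehicle difference of 2.47 (adjusted p = 0.00691). NUDT17, a nudix hydrolase (145845629 to 145848953), was at 38.3 and 47.8 against 132, 125 and 115 TPM (1.51 ± 0.17, adjusted p = 0.0404). LIX1L-AS1 was at 546 and 498 against 1259, 1418 and 1299 TPM (1.34 ± 0.11, adjusted p = 0.0217), and LIX1L on the other strand at 0 and 0 against 12.9, 12.7 and 16.5 TPM (adjusted p = 0.0217). The non-coding AC245100.7 and the pseudogene CCT8P1 completed the set, at 1.90 and 2.85 on the log2 scale (adjusted p of 0.0242 and 0.0372). Resistant libraries were above parental ones for each of the 6 with no overlap. Beyond the window's end, ADAMTSL4, a secreted matrix protein next to MCL1 (150549369 to 150560937), was at 1.45 and 0.304 against 21.9, 24.1 and 28.8 TPM (3.85 ± 0.37, adjusted p = 0.0295), and was called under vehicle as well (1.97, adjusted p = 0.0396).

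**Figure D3:**
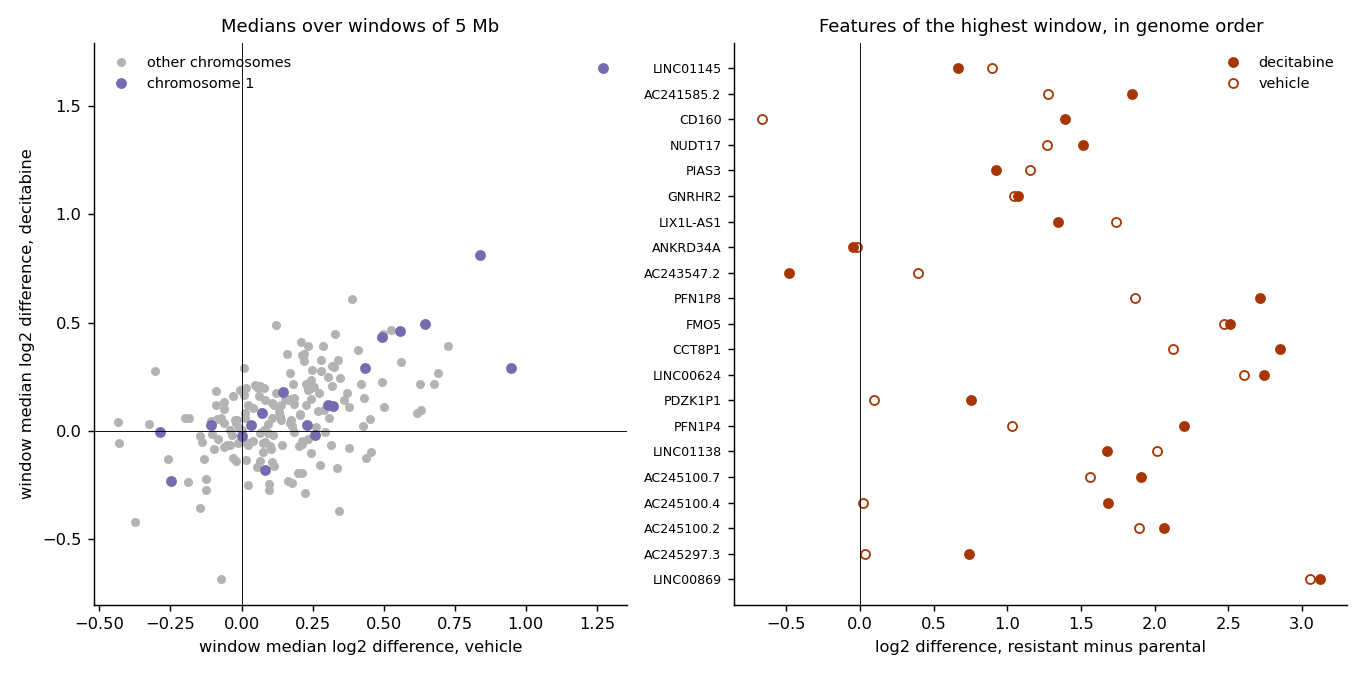
The left panel shows the median log2 difference between the lines (log2 of TPM + 1) in 5 Mb windows, vehicle (horizontal axis) against decitabine (vertical axis). Each of its points is a window of at least 8 features above 0 in 11 libraries. The right panel shows the log2 differences of the 21 such features of chromosome 1 from 145 to 150 Mb, in genome order. Filled points are decitabine and open points vehicle. The chromosome 1 window stands at 1.67 under decitabine and 1.27 under vehicle, where the next highest windows stand at 0.81 and 0.95.

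The same line contrast without the drug used 6 other libraries and gave 217 calls among 7761 features (2.8%), 134 higher and 83 lower. This split depended on scaling, with 86 higher and 105 lower after median-ratio scaling. The vehicle count was 63, 58 and 67 without parental vehicle replicate 1, 2 and 3, and 191, 125 and 67 without resistant vehicle library a, b and c. Of the 75 decitabine calls 20 (26.7%) were also vehicle calls, which is 9.22% of the vehicle calls, and all 20 had the same sign. Of the 67 that could be tested under vehicle 52 had the same sign, and 29 were again without overlap between lines, against 28.1% of all features tested there. The same-sign counts stand without a share over all tested features, so they are no result about the calls. Switching between 0 and at least 10 TPM within a vehicle group was seen for 26 of the 75 (34.7%), beside 8.18% of all tested features. FAM163B (1.87 and 1.47 against 18.6, 15.98 and 17.2 TPM, 2.78 ± 0.25), is an example of an even difference, since it was 2.61 under vehicle. AFAP1-AS1, a long antisense RNA that is high in several carcinomas, was at 22.8 and 22.6 against 65.4, 59.2 and 55.7 TPM (1.36 ± 0.16, adjusted p = 0.049), and differed by 1.67 under vehicle (adjusted p = 0.00619).

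**Figure D4:**
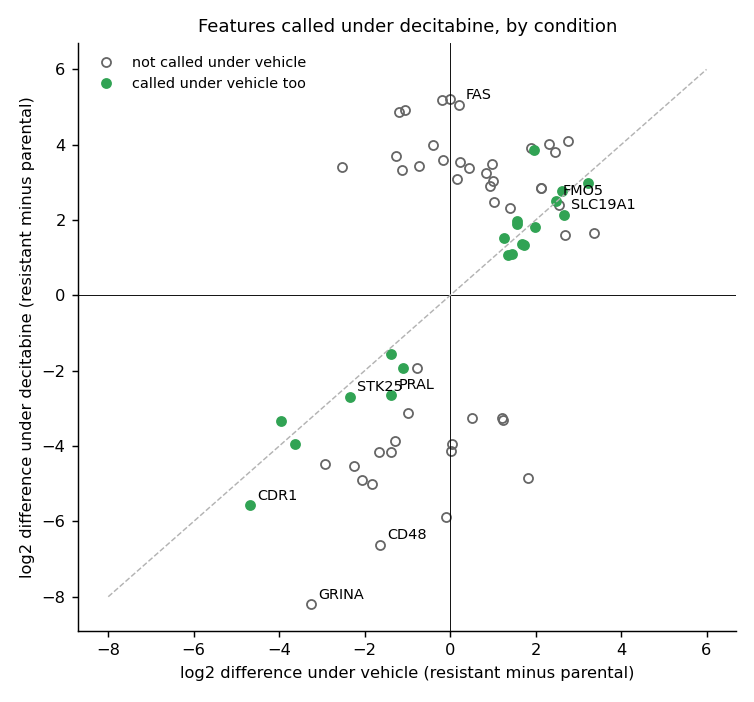
Log2 difference between the lines under vehicle (horizontal axis) and under decitabine (vertical axis), both on log2 of TPM + 1, for the 67 of the 75 decitabine calls that were tested under vehicle. Of the 67, 52 have the same sign on both axes, and FAS lies near 0 under vehicle and at 5.07 under decitabine.

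Whether a line difference itself changed with the drug was tested directly over 11 libraries, and 31 of 8505 features were called (0.364%), 16 with a higher and 15 with a lower difference under decitabine, against 857 at an unadjusted p under 0.05. Of the 31, 7 (22.6%) were among the 75. The count was 17, 13 and 12 without parental vehicle replicate 1, 2 and 3, 47, 19 and 14 without resistant vehicle library a, b and c, and 14 without resistant decitabine library c. ACAT1, a mitochondrial enzyme of ketone and isoleucine metabolism (chromosome 11, 108121516 to 108147776), had a change of 4.90 ± 0.79 (adjusted p = 0.0495). It was at 99.0 and 105 against 61.6, 74.2 and 56.9 TPM with the drug, without a call (adjusted p = 0.24), and at 59.5, 88.0 and 91.1 against 0, 3.61 and 0 TPM without it. The resistant line thus had ACAT1 near 0 only among its vehicle libraries.

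RSPH10B2, a radial spoke gene of motile cilia with a near-identical copy, was at 6.32 and 8.48 against 0, 0.968 and 0 TPM under decitabine and at 5.83, 7.50 and 6.13 against 11.99, 8.27 and 10.4 TPM under vehicle. Its line difference changed by -3.31 ± 0.48 (adjusted p = 0.037), and reads shared with the copy make the value uncertain. PCDH9-AS1, opposite part of the protocadherin PCDH9 on chromosome 13 (66303871 to 66323561), was at 4.58 and 3.18 against 17.2, 17.8 and 22.0 TPM under decitabine and at 0 against 27.1, 15.8 and 26.6 TPM under vehicle. Its change was -2.51 ± 0.39 (adjusted p = 0.046), since the parental level was above 0 only with the drug while the resistant libraries overlapped between the 2 conditions.

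The gene lists were chosen by role. Of 534 distinct genes in 25 lists, 231 (43.3%) were tested and 4 called, namely FAS, BMF, UQCR10 and H4C9. That is 1.73% of the tested list genes, beside 0.831% of all tested features. Medians of the 23 lists with at least 3 tested members ran from -1.78 to 1.18, and 11 of all lists had a negative one. The interferon and nucleic acid sensing list, whose genes respond to double-stranded RNA and are often watched under hypomethylating drugs, had 7 of 35 tested, 2 positive and 0 called, with the lowest of these medians. MX1, an interferon-induced antiviral GTPase, was at 11.1 and 597 against 130.4, 1.58 and 0 TPM (-3.61, adjusted p = 0.623). MX1 overlapped between the lines, with high and low libraries in each. Of 27 cancer-testis and germline genes only SYCP3, of the meiotic chromosome axis, was tested, at 16.4 and 34.3 against 91.5, 166 and 68.3 TPM (2.05, adjusted p = 0.228).

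B-cell identity genes gave no call. CD79A and CD79B, the signalling chains of the B-cell receptor, were at 5.32 and 8.74 against 4.57, 6.74 and 8.68 TPM and at 2.69 and 0.986 against 0.0787, 2.32 and 4.10 TPM (adjusted p of 0.945 and 0.986). PAX5, the B-lineage transcription factor, was at 11.7 and 11.4 against 21.8, 34.7 and 19.97 TPM (1.03, adjusted p = 0.282). Of the B-cell receptor list 9 of 18 were tested (median -0.04), and of the germinal-centre and B-lineage list 16 of 25 (median 0.14), with 0 called. KLRK1, an activating receptor of NK cells, made up most of the NK-cell marker sum, at 33.7 and 38.3 against 27.6, 37.4 and 44.2 TPM (-0.01, adjusted p = 0.993) and at 0 in all 6 vehicle libraries.

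Metabolic and growth lists were close to the value over all features. The PI3K-AKT-mTOR list had 10 of 25 tested with a median of -0.18, and glycolysis and hypoxia had 15 of 27 tested with a median of -0.20. All 13 mitochondrially encoded transcripts were tested with a median of 0.30 and 10 positive, though MT-ATP6, a subunit of ATP synthase, was at 772 and 999 against 337, 369 and 541 TPM (-1.11, adjusted p = 0.208). Cytosolic ribosomal proteins (29 of 34 tested) had a median of 0.00. Of DNA damage and repair genes 18 of 32 were tested with a median of -0.03, and of cholesterol synthesis genes 14 of 20 with a median of -0.08. None of these lists held a call.

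**Figure D5:**
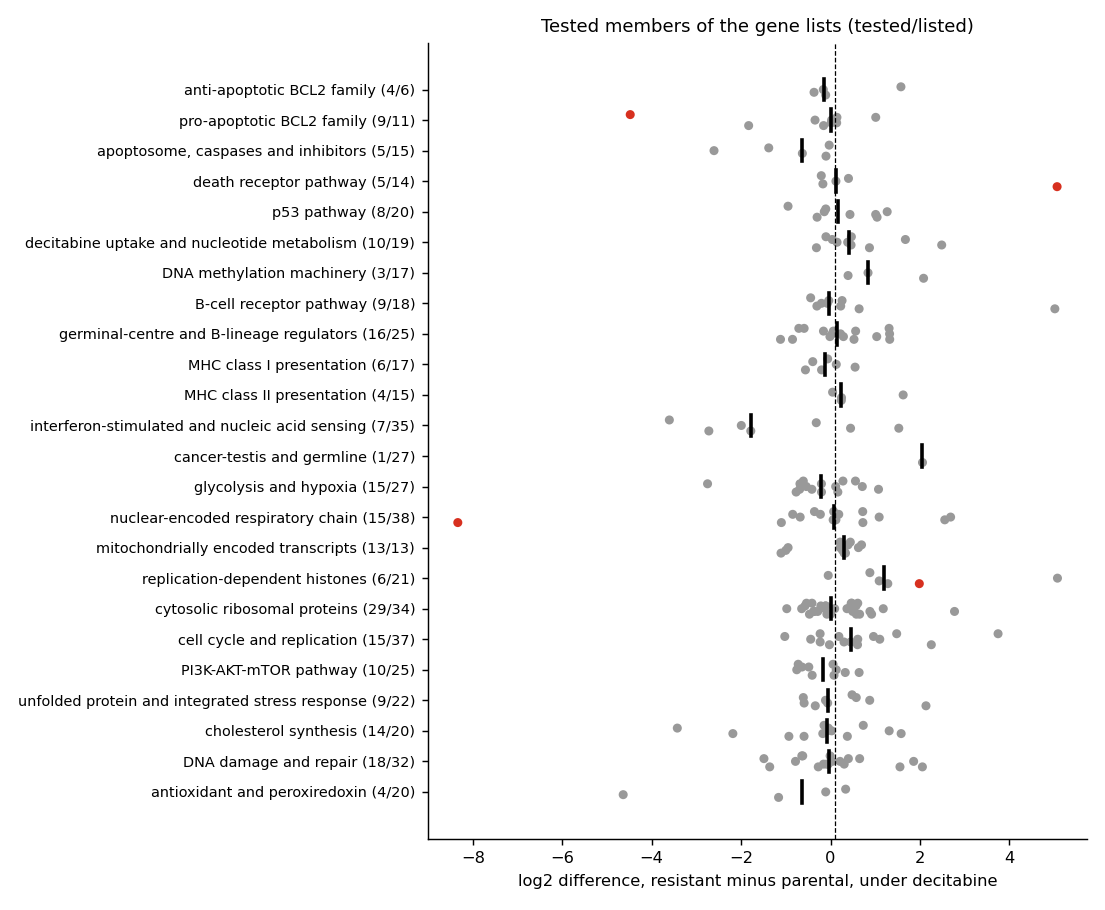
Log2 difference between resistant and parental decitabine libraries (log2 of TPM + 1) for each tested member of the gene lists, 1 row per list. Red points are called members, black ticks list medians and the dashed line the median of all tested features at 0.10, and the called members FAS, BMF, UQCR10 and H4C9 lie away from their lists' medians.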

How the data were processed

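Polyadenylated RNA of 12 OCI-LY1 libraries was sequenced as stranded libraries on the DNBSEQ platform, per the labels. HISAT2, StringTie and DESeq2 were used by the authors with build hg38, per the submitters' processing notes; the sources used here do not give their versions, order or strand setting. The tables deposited by the authors, 1 per line, were read as TPM, since each library sums to 1000000; depth is unknown, so no counting interval is given. Features were matched by name: 59490 unique names entered, and 1166 features sharing a name did not. Positions and strands come from GENCODE 29 (GRCh38) and promoter sequences from RefSeq. Columns of the resistant table match a group but no single sample, and are lettered.

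Each contrast was fitted with limma 3.58.1 (trend, R 4.3.3) after a transform to log2(TPM + 1), using features that averaged 1 TPM or more, with Benjamini-Hochberg adjustment over all of them. The design assumed counts or TPM, and its TPM branch was used. Differences understate the change of features of low TPM, and no fold is given against a group at 0. Named features are the 8 highest and 8 lowest and the 5 of smallest p in each direction among calls that do not overlap and have no clone name, 23 core genes, called list members, and the 4 highest and 4 lowest changes; all other features named were chosen after their values were seen. The results of some genes are not reported here. Members, lists and tests were chosen with earlier results of these data known. The test was also run on simulated data with normal noise, which does not copy features that switch between 0 and high values. No result here rests on that run. Alternatives were scaling, filter, pseudocount, threshold, variance model, shared spread, replicate 3 and each library left out; scaling of the window median was added after the data were seen.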

Additional observations from a re-analysis of the deposited data

Results flagged for a closer look

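The line difference changed between vehicle and decitabine for 31 features by the test of the difference itself. The changes on the log2 scale were 4.92 for SNAP29, 4.87 for FAS, 4.43 for ZC3HC1 and 4.90 for ACAT1, and -8.34 for UQCR10, -5.36 for TANGO2, -3.31 for RSPH10B2 and -2.51 for PCDH9-AS1. Of these, FAS alone was above 0 in all 11 libraries.

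A further group, PINK1, BMF-AS1, PRR33, NPIPB11 and RUSC1-AS1, is named here after its values were seen, since each member was above 0 in all 11 libraries. PINK1, a kinase that marks damaged mitochondria, was at 26.0 and 30.7 against 35.2, 26.2 and 27.9 TPM with the drug and at 24.3, 20.5 and 20.6 against 7.33, 5.87 and 5.46 TPM without it, a change of 1.73 (limma adjusted p = 0.0495). BMF-AS1 changed by 1.17 (adjusted p = 0.0346). PRR33 was at 975 and 1019 against 977, 1091 and 947 TPM with the drug and at 1206, 1154 and 1211 against 690.1, 644 and 653 TPM without it, a change of 0.85 (adjusted p = 0.0337). In these 3 the resistant line was lower without the drug and the lines overlapped with it. NPIPB11, of a multigene family whose reads may be shared between copies, was at 27.0 and 22.0 against 9.71, 10.8 and 11.8 TPM with the drug and at 36.6, 32.8 and 31.3 against 42.5, 42.4 and 40.9 TPM without it, a change of -1.43 (adjusted p = 0.0447). RUSC1-AS1 was at 781 and 1232 against 640.4, 656 and 725 TPM with the drug and at 824, 855 and 922 against 1477, 1787 and 1626 TPM without it, a change of -1.45 (adjusted p = 0.0495).

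Protein-coding features held 89.6% of the TPM of parental decitabine replicate 3, the library outside the comparison, against 26.6% to 32.2% in the other 11 libraries.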

How the results depend on the processing

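Under decitabine the 75 calls became 155 with 4 group means over 11 libraries (36 of the 75 shared), 42 over features above 0 in every fitted library, 3 at an adjusted p under 0.01, 21 with no filter and 0 with replicate 3 included. Leaving out 1 library gave 0 to 17, and only 5 of the 75 were called in any such fit. No trend, a pseudocount of 0.1, a mean of at least 5 TPM, a log2 difference of at least 1 and both scalings gave 50 to 82. The 217 vehicle calls became 37 at an adjusted p under 0.01 and 68 with no filter, and 58 to 191 without 1 library. The 31 changes of the line difference became 15 above 0 everywhere, 6 at an adjusted p under 0.01, 7 with no filter and 1 with replicate 3 included, and 12 to 47 without 1 library. With replicate 3 included, the sign turned for AC007620.2 (1.60), AP001610.2 (1.57) and PRAL (0.074) under decitabine and for the change of RUSC1-AS1 (1.45); the cause was not tested. No named call turned sign under the other settings. No paired analysis was possible because the columns of the resistant table carry no number that ties them to 1 sample. Where a fit left 1 parental decitabine library, that library was assumed to vary like the other group. TPM keep no depth, so what depth limits cannot be stated.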
